A study of Homo sapiens with 2 samples.

Results

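The respiratory chain genes of nonadherent blood cells made from human pluripotent stem cells are described here, those of the nuclear genome beside those of the mitochondrial genome. Genes were taken by symbol, from the NDUFA, NDUFB, NDUFC, NDUFS, NDUFV, UQCR, COX4, COX5, COX6, COX7, COX8, ATP5 and MT- series, with a minimum of 100 unique molecular identifiers (UMIs, 1 per captured RNA molecule) over the kept cells. This gave 98 of 32738 genes, 13 from the mitochondrial genome and 85 from the nucleus, out of 110 that matched by symbol. Among the 85, 71 encode structural subunits and 14 do not. The 14 include NDUFAF1 to NDUFAF7, 7 assembly factors of complex I, the supercomplex factor COX7A2L and the antisense transcript NDUFB2-AS1. The rest are 3 gene copies (ATP5EP2, ATP5L2 and COX6A1P2) and ATP5S and ATP5SL, now named DMAC2L and DMAC2. The 71 divide into 37 subunits of complex I, 8 of complex III, 11 of complex IV (NDUFA4 among them) and 15 of complex V, beside 7, 1, 3 and 2 mitochondrial genes. CYC1, the cytochrome c1 of complex III, does not match by symbol and is not in the values given for complex III.

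CD34+ cells of the induced pluripotent stem cell line iPS11 went through the endothelial-to-hematopoietic transition (EHT) for 5 days on 4 surfaces, and the cells that came off the plate were profiled by droplet-based scRNA-seq. The surfaces were uncoated plastic, the adhesion protein VCAM1, the notch ligand DLL4, and DLL4 with VCAM1. All conditions shared the cell line, the medium and 1 library, wells were pooled within a condition before antibody hashtags were added, and no label ties a hashtag to a coating, so Hashtag-0252, Hashtag-0253, Hashtag-0254 and Hashtag-0255 are compared by number. There was therefore no replicate of any group: no test was made, and the 95% intervals given cover counting error only.

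The respiratory chain passes electrons from NADH and succinate to oxygen and pumps protons, and complex V uses the proton gradient to make ATP. Complexes I, III, IV and V are built from proteins of both genomes. The mitochondrial genes encode the hydrophobic core, are read as long transcripts of the whole circle that are then cut, and depend on nuclear factors for every step. The nuclear genes encode the remaining core proteins and the accessory subunits, and NRF1, GABPA, YY1 and ERR factors are known regulators of many of them. Blood progenitors are commonly described as relying little on respiration, with more of it as they mature.

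Sequences of both genomes bear on the readings. MT-ATP8 and MT-ATP6 share bases within 1 transcript, as MT-ND4L and MT-ND4 do, so a read in the overlap could belong to either gene. In the GRCh37 mitochondrial reference of 16569 bases, on the strand of these genes, the shared bases are in capitals, 46 for the ATP genes at MT:8527-8572 and 7 for the ND genes at MT:10760-10766.
MT-ATP8 and MT-ATP6, MT:8517-8582: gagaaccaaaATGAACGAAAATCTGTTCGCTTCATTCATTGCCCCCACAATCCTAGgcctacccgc
MT-ND4L and MT-ND4, MT:10750-10776: acctactccaATGCTAAaactaatcgt

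The promoters of nuclear subunits were searched in RefSeq windows of GRCh38.p14 that run from 250 bases before to 50 after the gene start, which 59 of the 71 subunits had. NRF1's letters GCGCATGCG, on either strand, stood in 10 of the 59 (16.9%), against 3.11% of 15843 coding genes with a window. The 10 were 5 genes of complex I, 1 of complex IV and 4 of complex V. The shorter letters of the ETS factor GABPA, CCGGAAGT, stood in 10 (16.9%, against 6.97%) and those of YY1, AAGATGGC, in 11 (18.6%, against 4.66%). The ERR letters TCAAGGTCA were in 0 of the 59 windows and in 0.335% of coding genes. Both strands were read for each motif, none of the 4 contains another, and the NRF1 letters can overlap their own reverse complement, which counted once per gene. Any of the 4 stood in 28 of 59 subunits, and more than 1 in 2. These 5 stretches, each on the strand of its gene, show the NRF1 letters in capitals in genes described further on or of different complexes.
COX6A1 (complex IV), chr12:120437869-120437927, plus strand: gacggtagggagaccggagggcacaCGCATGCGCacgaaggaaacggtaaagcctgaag
NDUFS6 (complex I), chr5:1801336-1801394, plus strand: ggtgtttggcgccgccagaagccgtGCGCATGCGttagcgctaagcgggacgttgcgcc
NDUFS7 (complex I), chr19:1383808-1383866, plus strand: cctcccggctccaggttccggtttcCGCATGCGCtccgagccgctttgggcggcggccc
ATP5G2 (complex V), chr12:53676091-53676149, minus strand: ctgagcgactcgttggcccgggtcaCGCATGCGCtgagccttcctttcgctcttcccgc
ATP5J (complex V), chr21:25735141-25735199, minus strand: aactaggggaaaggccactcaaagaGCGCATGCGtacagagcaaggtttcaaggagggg
A match describes the letters and is not a measured binding site.

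Of 10836 barcodes, 7550 carried 1 hashtag and passed the study's limits of 36000 UMIs, 6000 genes and 18% mitochondrial UMIs; 2136, 1996, 1847 and 1571 of them carried Hashtag-0252, Hashtag-0253, Hashtag-0254 and Hashtag-0255. The median cell held 18318.5 gene UMIs, of which the hashtag medians ranged from 17621 to 18769.5, and hashtags summed to between 28522216 and 40416478 UMIs. Cells were sorted into gates by summed UMIs of a few genes per 10000 gene UMIs of the cell, none of them a respiratory gene: C1Q (C1QA to C1QC), granule (MPO, PRTN3, AZU1, ELANE), globin, eosinophil (EPX, PRG2, CLC), collagen, HLA class II, and CD34/GATA2. Separate markers were ranked over the gates of at least 50 cells, with cells of no gate or several gates left out. They were highest in their own gate for 5 of 5 genes of the C1Q, globin and collagen gates. For the granule gate 4 of 5 were, and for the eosinophil gate 3 of 5. Of these 3, IL5RA (32.9) and ALOX15 (6.84 per 1000000 gene UMIs) bear on the eosinophil name. EPO, the erythropoietin gene, was near 0 (0.43) and does not. AHSP, 1 of the 5 markers of the globin gate, was near 0 there too (0.39) and does not bear on that name. RNASE3 was highest in the granule gate (57.5 against 7.69) and CCR3 in the HLA class II gate. Of the mast markers, MS4A2 (2.14), HPGDS (25.2) and SLC18A2 (63.7) were also highest in the eosinophil gate, and KIT and GATA1 were not. For the HLA class II gate 0 of 5 were highest, because all 5 were highest in the C1Q gate. They still summed to 2742 per 1000000 gene UMIs in the HLA class II gate, against 222 in the CD34/GATA2 gate. Markers went against the name of the CD34/GATA2 gate. Of the 5, 1 (SPINK2) was highest there, with MECOM, CYTL1 and LYL1 highest in the globin gate. SPINK2 stood at 48.9 per 1000000 gene UMIs in the CD34/GATA2 gate, 47.5 in the HLA class II gate and 109 in cells of no gate. Of endothelial genes, CDH5 (1.98), CLDN5 (1.24) and KDR (1.83) were near 0 per 1000000 gene UMIs in the CD34/GATA2 gate, and PECAM1 was not used here. All gate names therefore stand for the gate genes only, that of the eosinophil gate included. The CD34/GATA2 gate serves only as the common reference, so that the comparisons are not independent. The gates did not take in all cells: 2832 (37.5%) were in no gate and 419 (5.55%) in several gates. Cells past both the HLA class II and the CD34/GATA2 gate, and no other, were counted in no gate. Gates are ranges of a score and have cells near the cut. By score alone over all kept cells, CD34/GATA2 had 520 a little below it and 604 a little above (by up to 20% or 25%). C1Q had 48 and 53, and granule 92 and 81. Of 2465 kept cells past the CD34/GATA2 score, 1552 were in that gate.

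Mitochondrial transcripts made up 12.9% of all gene UMIs of the kept cells (12.917% to 12.928%). The 71 nuclear subunits made up 3.25% of nuclear UMIs, so a kept cell pool held 4.56 mitochondrial UMIs for each nuclear subunit UMI, a ratio called the balance below. The median cell had 2399.5 mitochondrial and 525 subunit UMIs. In single cells the mitochondrial share ran from 9.02% at the 5th percentile to 16.8% at the 95th, and the limit of 18% set its upper end.

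Among mitochondrial UMIs the subunits of complex IV, the oxidase that reduces oxygen, led. MT-CO3 took 22.2%, MT-CO2 20.8% and MT-CO1 14.1%, so the 3 held 57.1%. MT-ATP6, the proton channel of complex V, took 12.2% and MT-CYB, the cytochrome b of complex III, 9.49%. The 7 genes of complex I took 21.0% together, from MT-ND4 at 8.19% and MT-ND3 and MT-ND1 at 4.19% each to MT-ND2 at 2.73% and MT-ND5 at 1.33%. MT-ND6, MT-ND4L and MT-ATP8 were each under the level of MT-ND5.

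The nuclear subunits spanned a narrow range in complex IV and a wide one in complex I. Levels are UMIs per 1000000 nuclear gene UMIs, and since the chemistry reads 1 end per molecule they were not divided by gene length. In complex IV, COX7C (1192) and COX4I1 (967) were highest and COX6A1 (469) lowest, a span of 2.54 times. In complex V, ATP5G3, a gene for the rotor ring's c subunit, stood at 1082 and ATP5E, the epsilon subunit, at 1029, with ATP5H (277) lowest and a span of 3.91 times. In complex III, UQCRH (1036), the hinge protein, and UQCR10 (774) led and UQCRC2 (151), a core protein, was lowest, a span of 6.86 times. In complex I, NDUFS5 (745) and NDUFS6 (589.9) led and NDUFA7 (34.3) was lowest, 21.8 times under NDUFS5. NDUFS1 (66.6) was next lowest. A second NDUFA7 identifier spans the same bases on the same strand, and its part in the low NDUFA7 count was not tested. The accessory genes thus led in complexes I and III, while the median subunit stood at 284 in complex I, 469.8 in complex III, 681 in complex IV and 635 in complex V.

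Tissue-restricted versions of the subunits were almost unread. COX4I1 had 119663 UMIs against 1 for COX4I2, the lung form that is known to respond to low oxygen, and COX6A1 had 57983 against 1 for COX6A2, the form of heart and muscle. COX7B2 had 1 UMI, COX6B2 8, NDUFA4L2 10 and COX8C 11. These fell under the minimum of 100, as did COX7A1, the muscle form of COX7A, with 46. COX7A1 was found in 8 of 70 collagen gate cells (11.4%, 5.07% to 21.3%), against 0.451% of CD34/GATA2 gate cells, at median depths of 15299 and 19846.5 UMIs. With each cell thinned to 5000 UMIs the shares of cells with a UMI were 7.69% (2.54% to 17.0%) and 0% (up to 0.237%), a bound that holds at the thinned depth only; 5 collagen gate cells and none of the others were too shallow. Beside these 7, the 12 matched genes under the minimum were second identifiers of NDUFB8, UQCR11 and NDUFA7 and 2 readthrough genes, each at 0 to 5 UMIs.

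The 6 gates of blood genes gave subunit levels close to each other. The highest over the lowest gate was 1.23 times for the median subunit (5th to 95th percentile 1.14 to 1.63). For the 4211 nuclear genes with at least the 4240 UMIs of the lowest subunit, the same ratio was 1.59 (1.18 to 6.54). NDUFS8, a core subunit of complex I with iron-sulfur clusters, was flattest at 1.10 times. The widest were NDUFB9 (1.78), ATP5G1 (1.77) and NDUFS1 (1.66). Of the 71, 48 (67.6%) were at least 25% higher or 20% lower than in the CD34/GATA2 gate in at least 1 described gate, where 95.8% of all 13476 nuclear genes with the minimum and 90.4% of the 4211 deeper ones were. With the collagen gate left out the count was 23 (32.4%), beside 89.2% and 77.7%.

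**Figure D1:**
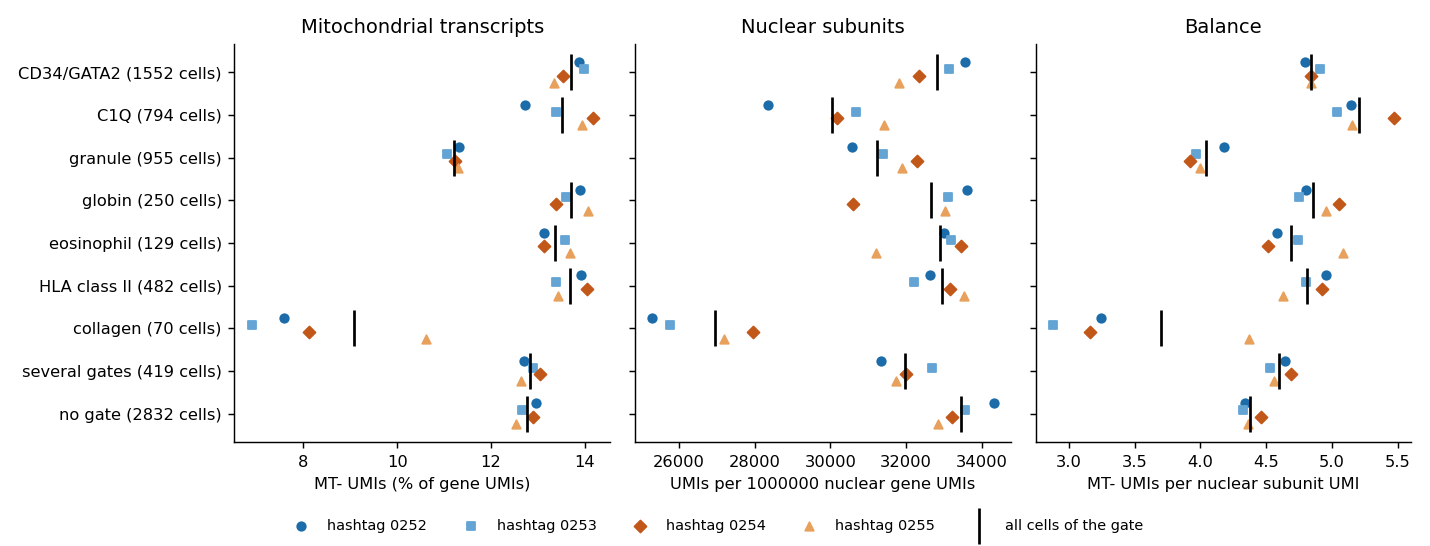
Mitochondrial UMIs as a percent of gene UMIs, nuclear subunit UMIs per 1000000 nuclear UMIs, and mitochondrial UMIs per nuclear subunit UMI (3 panels) in each gate. Points are the 4 hashtags and black ticks all cells of the gate; the granule gate sits at 11.2% and a balance of 4.04 and the CD34/GATA2 gate at 13.7% and 4.84, with no overlap of their hashtags.

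In the granule gate, of 955 cells with the enzymes of neutrophil granules, mitochondrial transcripts were lower than in the CD34/GATA2 gate, of 1552 cells, and nuclear subunits were lower in 3 of 4 hashtags. The mitochondrial share was 11.3%, 11.1%, 11.2% and 11.3% in Hashtag-0252 to Hashtag-0255, against 13.9%, 13.99%, 13.5% and 13.3%. All hashtags of the granule gate, with 383, 391, 107 and 74 cells, lay below all of the other gate. Nuclear subunits summed to 30568, 31397.5, 32290 and 31888.5 per 1000000 by hashtag, against 33561, 33139.7, 32333 and 31817. These overlapped: Hashtag-0254 was nearly equal in the gates and Hashtag-0255 was higher in the granule gate. Over all cells the levels were 31236 against 32809.7, a ratio of 0.952 (0.949 to 0.955), where the interval covers counting error only. The balance was therefore lower in the granule gate, 4.04 against 4.84, by a log2 ratio of -0.26 (-0.31 to -0.20 over hashtags). Cells over the limit of 18% are not in this value, and with a limit of 10% its sign turned, to 0.21, with 52 CD34/GATA2 gate cells (3.35%) and 266 granule gate cells (27.9%) left.

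The make-up of the mitochondrial RNA differed more than its amount. MT-ND2 took 4.79%, 4.59%, 4.18% and 4.25% of mitochondrial UMIs in the granule gate by hashtag, and 2.30%, 2.29%, 2.27% and 2.41% in the CD34/GATA2 gate. MT-ND1, its neighbor on the genome, took 6.43%, 6.21%, 5.87% and 5.70%, against 3.75%, 3.68%, 3.65% and 3.80%. Both genes were higher in each hashtag of the granule gate than in any of the other, by log2 ratios of 0.99 (MT-ND2) and 0.74 (MT-ND1). MT-ATP8 stood at 0.362% against 0.157% (1.21), MT-ND4L at 0.229% against 0.144% (0.66) and MT-ND4 at 10.3% against 7.46% (0.47), with the reservation that MT-ATP8 and MT-ND4L share bases with a neighbor. MT-ND3 (0.30), MT-ND6 (0.31) and MT-ND5 (0.20) were higher by less, and MT-ND5's hashtag values overlapped. As shares, all 7 genes of complex I were on the higher side, and complex I took 28.1% of mitochondrial UMIs against 19.2%.

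The genes on the lower side were those of complexes III and IV. MT-CYB took 7.70%, 7.87%, 8.22% and 8.13% of mitochondrial UMIs in the granule gate by hashtag against 9.94%, 10.1%, 10.0% and 9.90%, a log2 ratio of -0.35. MT-CO1 (-0.18), MT-CO2 (-0.16) and MT-CO3 (-0.19) were lower by less, and MT-ATP6 (-0.03) had hashtag values that overlapped. A share can be lower because others are higher, so the level per all gene UMIs was also taken. On that scale MT-ND2 (0.70), MT-ND1 (0.45), MT-ATP8 (0.92), MT-ND4L (0.37) and MT-ND4 (0.18) were still higher in log2 ratio, MT-ND3 (0.0091) and MT-ND6 (0.019) were near 0, and MT-ND5 turned lower (-0.09). MT-CYB (-0.64), MT-CO3 (-0.48), MT-CO1 (-0.47), MT-CO2 (-0.46) and MT-ATP6 (-0.32) were lower.

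**Figure D2:**
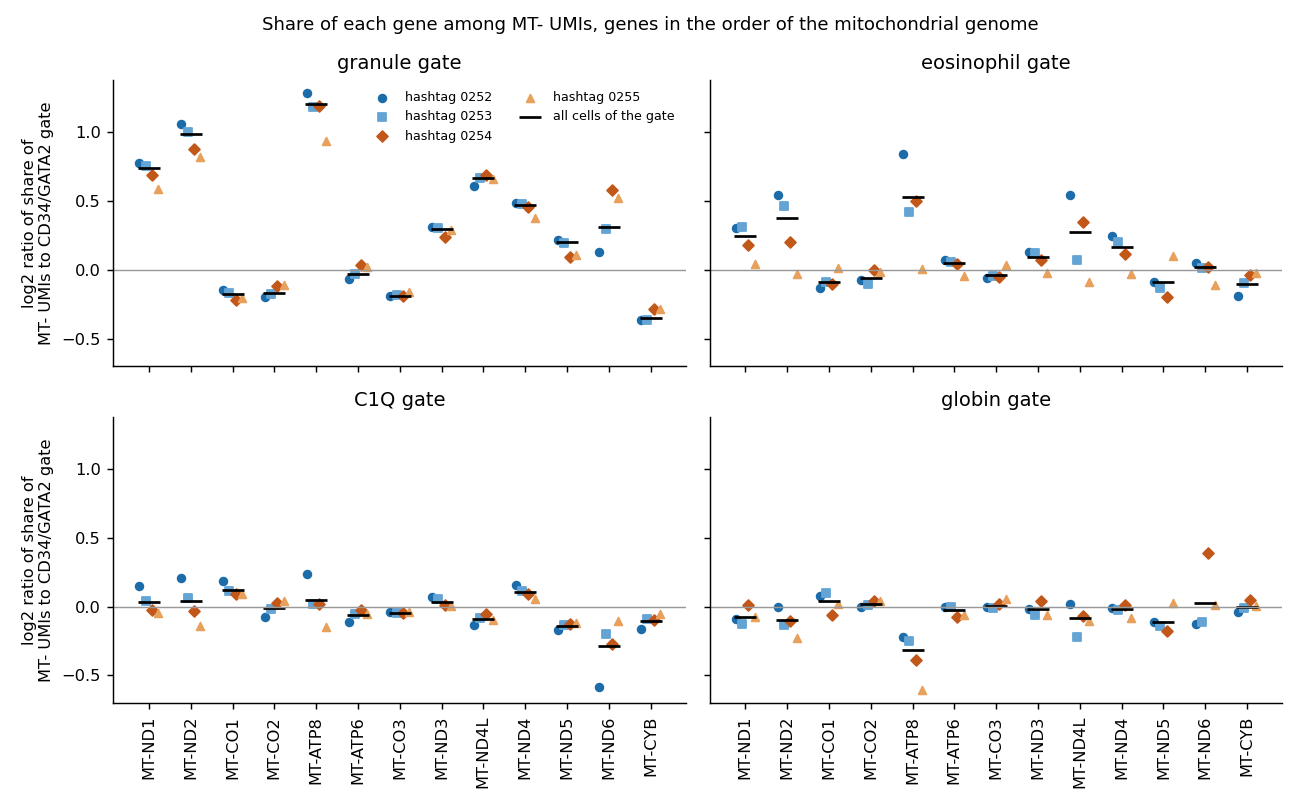
Log2 ratio of each mitochondrial gene's share of mitochondrial UMIs to that in the CD34/GATA2 gate, for the granule, eosinophil, C1Q and globin gates, with genes in genome order on the horizontal axis. Points are hashtags and black bars all cells; in the granule gate MT-ND1 (0.74), MT-ND2 (0.99) and MT-ATP8 (1.21) stand above 0 in every hashtag and MT-CYB (-0.35) below it.

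MT-ND1 and MT-ND2 summed, a measure chosen after these values were seen, took 10.8% of mitochondrial UMIs in the granule gate and 6.02% in the CD34/GATA2 gate, a log2 ratio of 0.84. The sum was 6.19% in the C1Q gate, 5.69% in the globin gate, 6.36% in the HLA class II gate, 5.87% in the collagen gate and 7.40% in the eosinophil gate. In single cells the granule gate's median was 11.1% (5th to 95th percentile 7.11% to 16.8%) and the CD34/GATA2 gate's 5.80% (4.23% to 8.34%). The gap was present at each depth: over 4 ranges of UMIs per cell the sum was 9.97% to 12.8% in the granule gate and 5.27% to 6.46% in the other. The eosinophil gate, of 129 cells, lay between, with MT-ND2 at 3.36%, 3.16%, 2.62% and 2.35% by hashtag, so Hashtag-0255 fell among the CD34/GATA2 values.

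Across all kept cells the sum was higher at each higher level of the granule genes. In 6 ranges of those genes (under 1, then from 1, 5, 20, 60 and 200 UMIs per 10000) it was 5.92%, 6.45%, 7.99%, 9.11%, 10.96% and 13.03%. The same order held in each of the 4 hashtags. MT-CYB went the other way, from 9.90% to 7.14%, MT-ND4 from 7.54% up to 11.1%, and the mitochondrial share of gene UMIs from 13.5% down to 10.5%. Nuclear subunits stood between 32623.9 and 33103 per 1000000 in the 4 lower ranges, and at 31440.5 and 28603 in the 2 upper ones. The granule genes themselves took 3.30% of UMIs in the top range.

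**Figure D3:**
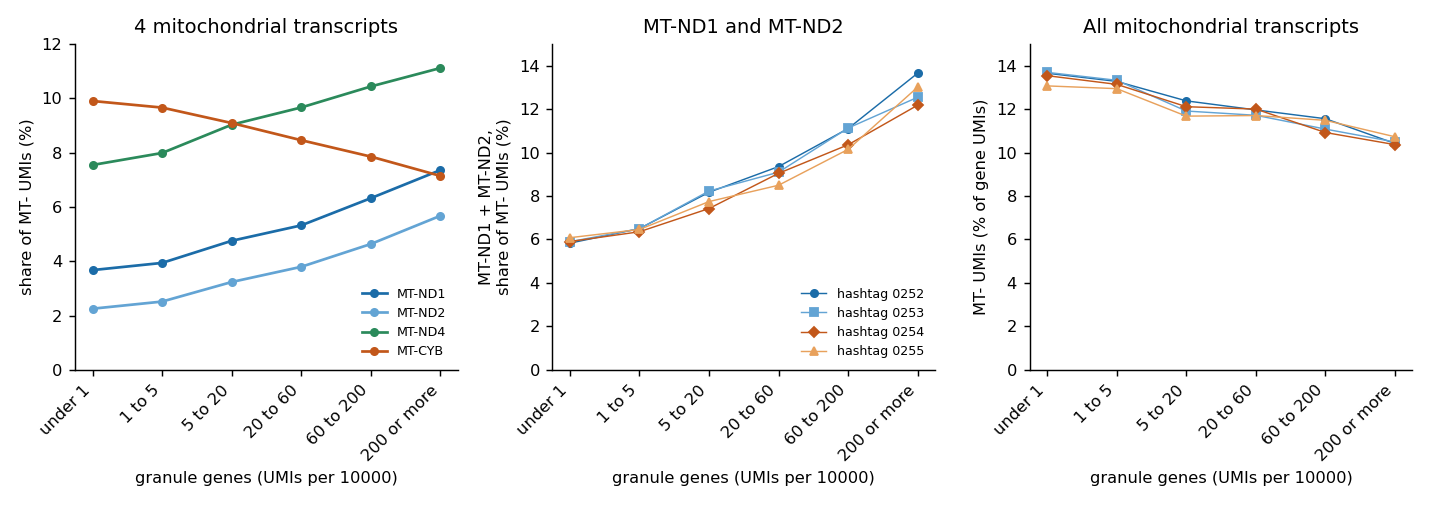
Shares of 4 mitochondrial genes among mitochondrial UMIs, the summed share of MT-ND1 and MT-ND2 by hashtag, and the mitochondrial percent of gene UMIs by hashtag, over 6 ranges of granule gene level (horizontal axis, UMIs per 10000). The summed share goes from 5.92% to 13.03% over all cells, and every hashtag is higher in each range than in the one before.

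Among nuclear subunits, 1 of 71 was at least 25% higher in the granule gate and 4 were at least 20% lower, which is the same fold in either direction. Over 13476 nuclear genes with at least 100 UMIs, 27.5% were higher and 26% lower by this fold, and over the 4211 genes as deep as subunits 18.9% and 17.2%. The subunits' own shares, 1.41% and 5.63%, were under these in both directions. NDUFA8, an accessory subunit of complex I, had 133, 135, 140.4 and 131 UMIs per 1000000 by hashtag in the granule gate, against 194, 185, 173 and 175. Its ratio was 0.736 (0.699 to 0.774). NDUFA12 (0.782), also accessory to complex I, COX7A2 of complex IV (0.796) and the accessory NDUFB6 (0.798) were the others. The assembly factor NDUFAF6 stood at 0.780. On the higher side NDUFS1, the largest iron-sulfur protein of complex I, stood at 82.3, 84.1, 86.3 and 62.6 against 62.2, 59.1, 62.1 and 69.7 (ratio 1.31), so Hashtag-0255 went the other way; it lies outside the naming rule. COX7A2L (1.23), NDUFAF7 (1.20), ATP5I (1.19), NDUFC1 (1.18) and UQCR10 (1.17) were the largest on that side with all hashtags alike, and none was 25% higher. By complex, the summed ratio was 0.930 for I, 0.997 for III, 0.912 for IV and 0.992 for V. Complex I was thus lower in summed nuclear transcripts and higher as a share of mitochondrial ones, and complex IV lower on both.

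In the C1Q gate, of 794 cells with complement genes of macrophages, the nuclear subunits were lower and the mitochondrial share was nearly that of the CD34/GATA2 gate. The subunits summed to 28346.6, 30669, 30177.3 and 31420 per 1000000 nuclear UMIs by hashtag, against 33561, 33139.7, 32333 and 31817. All 4 C1Q values lay below all 4 others, with a ratio of 0.916 (0.912 to 0.920). The mitochondrial share was 12.7%, 13.4%, 14.2% and 13.9%, which overlapped the range of 13.3% to 13.99% of the CD34/GATA2 gate. The balance was 5.20 against 4.84, a log2 ratio of 0.10 (0.04 to 0.18 over hashtags). The C1Q gate cells were shallower (median 13167 UMIs against 19846.5). At matched depth the balance was 5.53, 5.37, 4.95 and 4.46 over the 4 ranges of UMIs per cell and 5.55, 5.13, 4.83 and 4.64 in the CD34/GATA2 gate, so it was higher in the 2 middle ranges and slightly lower in the outer ones, where 59 CD34/GATA2 cells and 49 C1Q cells were.

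Of the 71 subunits, 14 were at least 20% lower in the C1Q gate and 1 was at least 25% higher. Over all 13476 nuclear genes 37.1% were lower and 27.8% higher by this fold, and over the 4211 deeper genes 41.1% and 17.1%. The median log2 ratio of subunits was -0.14 and that of all genes -0.10, so with the median of all genes set to 0 the counts became 9 lower and 4 higher. ATP5G1 (chr17:46970127-46973233 in GRCh37, plus strand) is a gene for the c subunit of complex V. It had 315, 402, 410.2 and 454 UMIs per 1000000 by hashtag in the C1Q gate against 658, 635, 635 and 637, a ratio of 0.608 (0.587 to 0.629). Its 3 gene family makes an identical mature protein, and ATP5G1's part of their UMIs was 17.1% in the C1Q gate (14.3% to 19.6% over hashtags), 23.7% in the CD34/GATA2 gate and 25.8% in the granule gate. NDUFS5 (chr1:39491990-39500308, plus strand), the highest nuclear gene of complex I, stood at 462, 492, 516 and 541 against 810.4, 797, 799.7 and 832, a ratio of 0.618 (0.599 to 0.638). NDUFAB1, the acyl carrier protein that is part of complex I, stood at 0.641. UQCRB, a subunit of complex III that binds ubiquinone, went the other way with 853, 834, 833 and 808 against 664, 690, 648 and 587, a ratio of 1.28 (1.245 to 1.312). ATP5L (1.23), COX8A (1.22), NDUFA2 (1.21) and ATP5E (1.16) were next and under the fold.

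As a sum, the 7 NDUFAF assembly factors of complex I were further down than the complex I subunits. NDUFAF4 had 38.7, 42.6, 46.4 and 41.2 UMIs per 1000000 in the C1Q gate by hashtag against 92.0, 92.4, 95.6 and 95.7, a ratio of 0.450 (0.405 to 0.500). NDUFAF6 (0.496), NDUFAF2 (0.521) and NDUFAF5 (0.564) were also under, 4 of 7, and all 7 summed to a ratio of 0.647. NDUFAF1, NDUFAF3 and NDUFAF7 were not past the fold. In this gate 37.1% of all nuclear genes and 41.1% of the deeper ones were lower by the same fold. The same sum was 0.887 in the granule gate, 0.796 in the HLA class II gate, 0.956 in the globin gate, 0.864 in the eosinophil gate and 0.910 in the collagen gate. The subunits of complex I summed to 0.880 in the C1Q gate, of complex III to 0.929, of complex IV to 0.943 and of complex V to 0.928. In the C1Q gate's mitochondrial RNA, MT-CO1 (log2 ratio of share 0.12) and MT-ND4 (0.11) were higher, and MT-ND6 (-0.29), MT-ND5 (-0.14) and MT-CYB (-0.10) lower. All were smaller than the granule gate's MT-ND1 and MT-ND2. MT-ND6 ran from -0.58 to -0.10 over hashtags, and its hashtag values overlapped those of the CD34/GATA2 gate.

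**Figure D4:**
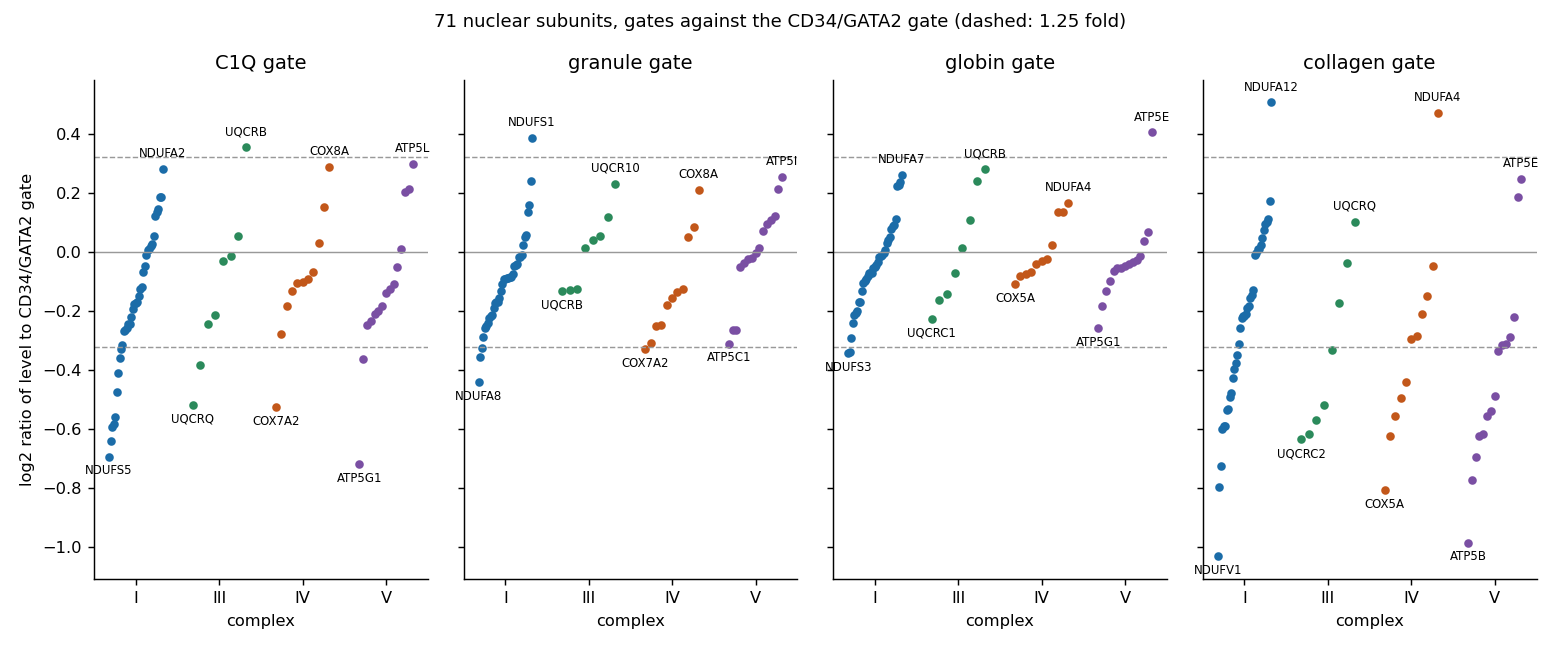
Log2 ratio of the level of each of 71 nuclear subunits to the CD34/GATA2 gate, by complex (horizontal axis), in the C1Q, granule, globin and collagen gates; dashed lines mark 25% higher and 20% lower. The lowest and highest gene of each complex is named, and 14, 4, 2 and 33 subunits lie below the lower line.

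The globin gate, of 250 cells (82, 81, 56 and 31 by hashtag), matched the reference more closely. The mitochondrial share was 13.7% in both, and the balance was 4.80, 4.75, 5.05 and 4.96 by hashtag against 4.80, 4.91, 4.84 and 4.84, a log2 ratio of 0.0044 with hashtags from -0.05 to 0.06. In the globin gate 1 subunit was at least 25% higher and 2 were at least 20% lower, where 14.1% and 31.7% of all nuclear genes and 8.45% and 16.7% of the deeper ones were. The gate's median log2 ratio over all genes was -0.12, and with it set to 0 the counts became 7 higher and 0 lower, so the direction of small differences depends on the scale. ATP5E had 1395, 1318, 1126 and 1263 UMIs per 1000000 against 1011, 1022, 928 and 924, a ratio of 1.32 (1.29 to 1.36). NDUFS3 (0.788), a core protein of complex I, and NDUFA12 (0.790) were lower. UQCRB (1.22) and UQCRH (1.18) of complex III stood above 1, and complex III summed to 1.06. MT-ATP8 was lower in share by a log2 ratio of -0.31.

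In the HLA class II gate, of 482 cells, 4 subunits were higher and 4 lower, against 24.3% and 31.8% of all nuclear genes and 15.2% and 25.8% of the deeper ones. The higher genes were ATP5L (1.32), the g subunit of complex V, NDUFA2 (1.30), COX8A (1.28) and NDUFB3 (1.26). The lower ones were all of complex I: NDUFB9 (0.724), NDUFS3 (0.745), NDUFA8 (0.755) and NDUFS4 (0.782). ATP5L stood at 927, 874, 934 and 935 by hashtag against 706, 696, 699 and 682, with no overlap. NDUFAF4 (0.582), NDUFAF6 (0.656) and NDUFAF2 (0.751) were lower here too. In the C1Q gate, read against the same reference cells, ATP5L, NDUFA2 and COX8A stood at 1.23, 1.21 and 1.22. The balance of the HLA class II gate had a log2 ratio of -0.01, from -0.06 to 0.05 over hashtags.

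In the eosinophil gate, with 37, 43, 25 and 24 cells by hashtag, NDUFS1 alone was past the fold, and 0 subunits were lower. NDUFS1 stood at 102, 97.8, 73.2 and 85.6 against 62.2, 59.1, 62.1 and 69.7 (ratio 1.47, 1.26 to 1.71), from 187 UMIs in this gate. All nuclear genes were past the fold in 20.2% (higher) and 28.3% (lower), and the deeper ones in 11.1% and 14.9%. NDUFAF4 stood at 0.763. The gate's balance had a log2 ratio of -0.05, from -0.10 to 0.07 over hashtags. NDUFS1 was also the higher subunit of the granule gate.

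The collagen gate held 70 cells with collagen transcripts, 40 of them in Hashtag-0255 and 9, 7 and 14 in the others. Its mitochondrial share was 9.08% and its subunits summed to 26959 per 1000000, a ratio of 0.822 to the CD34/GATA2 gate, the lowest of the described gates on both. Its balance was 3.24, 2.88, 3.16 and 4.37 by hashtag against 4.80, 4.91, 4.84 and 4.84, all 4 below all others, a log2 ratio of -0.39 (-0.77 to -0.15 over hashtags). With no limit on mitochondrial percent it was -0.19, and with no limit on UMIs or genes -0.86. Of the 71 subunits 33 (46.5%) were lower and 2 (2.82%) higher. Of all nuclear genes 46.8% were lower and 29.9% higher, and of the deeper ones 52.4% and 17.9%. The lower share of the subunits was thus near that of all genes and under that of the deeper ones. NDUFV1, which binds NADH in complex I, stood at 0.489 (0.398 to 0.595), and COX5A of complex IV at 0.571. ATP5B, the catalytic beta subunit of complex V, had 339, 468, 360.4 and 405 UMIs per 1000000 against 797, 761, 769 and 729.8, a ratio of 0.505. NDUFAF6 (0.439, 0.259 to 0.697, from 18 UMIs) and NDUFAF4 (0.516, 0.381 to 0.685, from 49 UMIs in this gate) were lower as well. NDUFA12 (1.42) and NDUFA4 (1.39), a subunit of complex IV, were higher in 3 of 4 hashtags. Complex V was the lowest by sum (0.762), then III (0.813), IV (0.823) and I (0.875). MKI67, a gene of dividing cells, stood at 61.1 per 1000000 gene UMIs in this gate, against 138.8 in the CD34/GATA2, 184.7 in the C1Q, 215.6 in the granule and 157 in the globin gate; its part in these results was not tested.

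Within the gates that were cut into bins, the cells with the most mitochondrial RNA also had more nuclear subunit RNA among their nuclear UMIs than those with the least. The CD34/GATA2 gate was cut into 5 bins of nearly equal cell number by mitochondrial share, which had 10.8%, 12.8%, 13.97%, 15.1% and 16.5% of UMIs from mitochondrial genes. Their subunits stood at 31519.8, 32528, 33133.6, 33366 and 33864 per 1000000 nuclear UMIs. In the C1Q gate the lowest and highest bin had 28228 and 30984.8, and in the granule gate 28265 and 32750.6, higher at each bin. The globin gate went from 31744.6 to 33686 with the fourth bin below the third. The HLA class II gate had 32387, 32512, 33412.7, 33207.5 and 33390.2, so its upper 3 bins were not in order either. The summed share of MT-ND1 and MT-ND2 was lower along the same bins, from 6.78% to 5.51% in the CD34/GATA2 gate and from 13.9% to 9.26% in the granule gate. Cells of high mitochondrial share were shallower in the CD34/GATA2 gate, with medians from 22228 down to 17557 UMIs, whereas the granule gate's lowest bin was its shallowest at 14610.0; the part of depth was not tested.

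**Figure D5:**
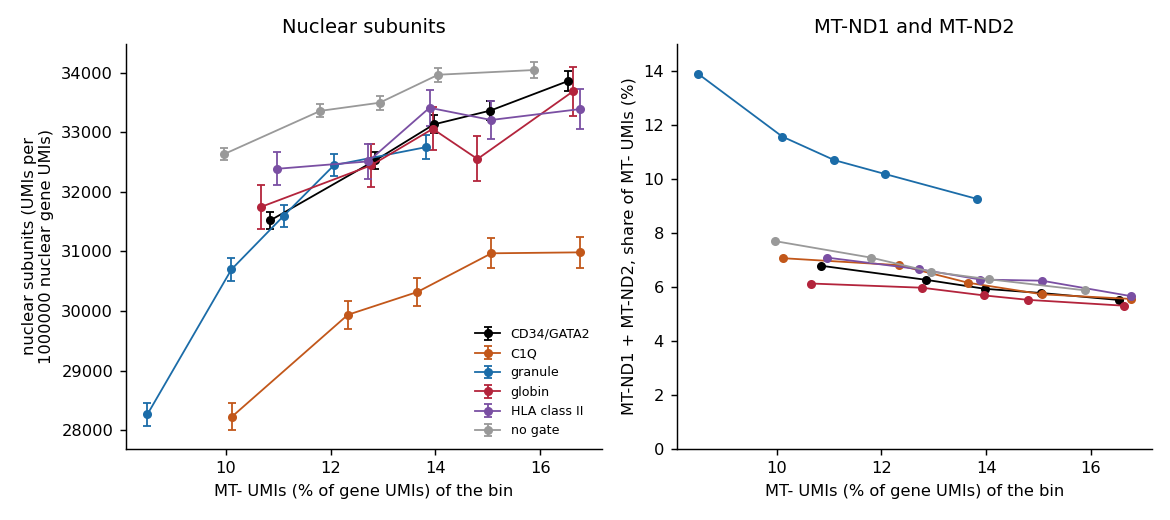
Nuclear subunit UMIs per 1000000 nuclear UMIs (left, with 95% counting intervals) and the summed share of MT-ND1 and MT-ND2 (right) over 5 bins of mitochondrial percent in 6 gates; the vertical axis on the left does not start at 0. In the CD34/GATA2 gate subunits go from 31519.8 to 33864 while the summed share goes from 6.78% to 5.51%.

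Between hashtags the respiratory genes were close to equal. Mitochondrial UMIs were 12.9%, 12.8%, 13.1% and 12.8% of gene UMIs in Hashtag-0252, Hashtag-0253, Hashtag-0254 and Hashtag-0255, and subunits 32642, 32611.6, 32474.6 and 32394.9 per 1000000. With Hashtag-0254 and Hashtag-0255 set against Hashtag-0252 and Hashtag-0253, the balance had a log2 ratio of 0.02 and 0 of 71 subunits were past the fold in either direction. Over all 13476 nuclear genes 8.3% were higher and 8.73% lower by this fold, and over the deeper ones 2.26% and 3.61%. The largest subunit differences with both hashtags of a pair alike were NDUFB6 (1.10), NDUFA9 (1.08), NDUFA12 (1.08) and NDUFV1 (1.08) on the higher side and NDUFB9 (0.923), NDUFS1 (0.923), NDUFS4 (0.948) and NDUFC1 (0.948) on the lower. All are of complex I, and the non-subunits NDUFAF1 (1.08, 1.01 to 1.16) and ATP5EP2 (0.940, 0.786 to 1.12) were among the named genes too.

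MT-ND1 and MT-ND2 did differ between the pairs. Their summed share was 7.24% and 7.27% in Hashtag-0252 and Hashtag-0253 and 6.45% and 6.56% in Hashtag-0254 and Hashtag-0255. The granule gate held 18.7% of the cells of the former pair and 5.30% of the latter. Within the granule gate the sum was 11.2%, 10.8%, 10.0% and 9.96% by hashtag, and within the C1Q gate 6.84%, 6.18%, 5.81% and 5.88%. It was 6.53%, 6.49%, 6.26% and 6.21% in the HLA class II gate and 7.99%, 7.72%, 6.76% and 6.27% in the eosinophil gate, so in these 4 gates both hashtags of the former pair were higher than both of the latter. The CD34/GATA2 gate, with 6.05%, 5.97%, 5.92% and 6.21%, the globin gate and the collagen gate had no such split. Cells of no gate, with 6.56%, 7.025%, 6.49% and 6.60%, had none either. Cells of several gates had it, with 8.11%, 7.50%, 7.31% and 7.12%. The part of gate shares in the difference between the pairs was not tested. Within gates the log2 ratio of balance between the pairs was -0.0020 in the CD34/GATA2 gate, 0.07 in the C1Q gate, -0.04 in the granule gate, -0.03 in the HLA class II gate and 0.03 in cells of no gate. These 5 had at least 50 cells in each hashtag, and their mean was 0.0031. The globin gate had 0.07, from 87 against 163 cells, and the collagen gate 0.33, from 54 against 16.

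Lists of other genes of the pathway were read in the same gates. Of 15 genes of mitochondrial RNA and its control with at least 100 UMIs, 7 were higher and 1 (GABPB1) lower in the granule gate: TFAM, which packs and starts transcription of mitochondrial DNA (1.39), the mitochondrial RNA polymerase POLRMT (1.26), LRPPRC, which stabilizes its transcripts (1.35), NRF1 (1.55), GABPA (1.69), PPARGC1B (1.26) and MYC (1.26). In the C1Q gate 0 of the 15 were higher and 10 lower, among them SLIRP, the partner of LRPPRC (0.499), LRPPRC (0.581), POLRMT (0.568) and MYC (0.303). The median log2 ratio of this list was 0.20 in the granule gate, with 0.02 for all genes, and -0.56 in the C1Q gate, with -0.10. Over all nuclear genes 27.5% were higher and 26% lower in the granule gate, and 27.8% and 37.1% in the C1Q gate. The globin gate had 1 higher and 4 lower of the 15 (all genes 14.1% and 31.7%), the HLA class II gate 1 and 7 (24.3% and 31.8%), the eosinophil gate 1 and 4 (20.2% and 28.3%) and the collagen gate 0 and 13 (29.9% and 46.8%). The 4 lower genes of the globin gate and of the eosinophil gate were near the share of all genes.

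Complex II and the cytochromes c and c1, 6 genes outside the symbol series, had none past the fold in the granule and globin gates. CYC1 (0.768), the cytochrome c1 of complex III, and CYCS (0.601), cytochrome c, were lower in the C1Q gate. In the collagen gate 4 of the 6 were lower, CYC1 and CYCS among them. Of all nuclear genes 37.1% were lower in the C1Q gate and 46.8% in the collagen gate. Of the deeper genes 41.1% and 52.4% were. The 2 lower genes of the C1Q gate were near these shares. In the HLA class II gate 1 of the 6, SDHD, was higher, where 24.3% of all nuclear genes were. Among 26 assembly factors, 3 were higher and 12 lower in the C1Q gate (all genes 27.8% and 37.1%, deeper genes 17.1% and 41.1%), 5 and 1 in the granule gate (27.5% and 26%), 1 and 9 in the globin gate (14.1% and 31.7%) and 1 and 15 in the collagen gate (29.9% and 46.8%). The lower counts in the C1Q, globin and collagen gates were near those shares. Among 11 carriers and brakes of the chain, UCP2, an inner membrane carrier, stood at 2.52 times its CD34/GATA2 gate level (2.40 to 2.65) in the C1Q gate, where VDAC1, VDAC2 and VDAC3, the outer membrane channels, stood at 0.598, 0.632 and 0.602. This list had 2 higher and 5 lower genes in the C1Q gate, 2 and 4 in the HLA class II gate, 0 and 4 in the granule gate, 2 and 0 in the globin gate and 2 and 4 in the collagen gate. The UCP2 and VDAC readings were not particular to the C1Q gate. In the HLA class II gate UCP2 was higher and VDAC1, VDAC2 and VDAC3 were lower too. UCP2 was also higher in the globin gate and lower in the collagen gate. VDAC2 and VDAC3 were lower in the granule gate, and VDAC1 and VDAC3 in the collagen gate. Of all nuclear genes 27.8% were higher and 37.1% lower in the C1Q gate, and 24.3% and 31.8% in the HLA class II gate. The shares were 27.5% and 26% in the granule gate and 14.1% and 31.7% in the globin gate. In the collagen gate they were 29.9% and 46.8%. For a list of 11 genes, the counts in the C1Q and HLA class II gates were near these shares. Between the hashtag pairs MYC was lower and no other gene of these 4 lists was past the fold.

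Ratios of subunits with and without the NRF1 letters in a promoter were set side by side, and whether NRF1 bears on them was not tested. In the granule gate the 10 subunits with them had a median log2 ratio of -0.15 (-0.44 to 0.25) and the 49 without -0.05 (-0.35 to 0.38). In the C1Q gate the medians were -0.19 and -0.13, and in the collagen gate -0.27 and -0.29, with overlapping ranges throughout. Of the genes printed above, NDUFS6 was among the 14 lower in the C1Q gate, and COX6A1 and ATP5J were not.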

How the data were processed

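Droplet scRNA-seq was made of nonadherent cells of EHT day 5 in 1 library. Per the labels, reads were aligned to hg19 with Cell Ranger 6.0.1; the authors deposited whole counts of UMIs per gene and barcode, without normalization, and a table of hashtag calls. No other column was used. Cells with 1 hashtag and at most 36000 UMIs, 6000 genes and 18% mitochondrial UMIs were kept, doublets of different hashtags were left out as called, and no other doublet caller was run; no barcode occurred more than once. UMIs were summed per gate, and nuclear genes were scaled per 1000000 nuclear gene UMIs, with 100 UMIs as the minimum. Shares have exact Clopper-Pearson intervals, ratios exact conditional and levels exact Poisson ones, at 95%. With 1 library no test was made, and a gene counted as higher or lower from 1.25 times.

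Gates asked, per 10000 gene UMIs, for at least 3 of C1Q genes, 20 of granule, 10 of globin, 8 of platelet and 10 of collagen genes. The eosinophil and mast gates asked for 5 each, the HLA class II gate for 8 and the CD34/GATA2 gate for 3. The HLA class II and CD34/GATA2 gates asked for no other gate. CD34/GATA2 also asked for at least 1 UMI of each of its genes. Cells past more than 1 of the other gates were set apart as several gates. The platelet (18 cells) and mast (49 cells) gates had under 50 cells and are not described. Named genes were the 13 mitochondrial genes, up to 5 nuclear genes in each direction with the largest ratio and 1 direction in all hashtags, isoform families, non-subunits, and the highest of each complex. Members and lists were chosen with earlier results of these data known. The summed share of MT-ND1 and MT-ND2, the granule ranges, the depth ranges and 3 further gates were added after seeing the data.

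Alternatives changed the limits, gate cuts, weights of cells and hashtags, scaling, minimum, thinning to 5000 UMIs, and left out each hashtag. Positions are GRCh37 annotation and promoters RefSeq GRCh38.p14. Scripts ran in Python 3.11.15 with numpy 2.4.6, scipy 1.17.1, pandas 2.3.3 and matplotlib 3.10.9, and were tested on simulated data.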

Additional observations from a re-analysis of the deposited data

Results flagged for a closer look

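Barcodes outside the kept cells also held respiratory chain RNA, and no comparison above uses them. The 1009 barcodes that the hashtag table calls negative had 15.9% mitochondrial UMIs, above the kept cells' 12.9%, at a median of 14456 UMIs, with MT-ND1 and MT-ND2 at 6.36% of mitochondrial UMIs. The 1339 barcodes called doublets had 12.5%, at a median of 27367 UMIs, and a balance of 4.35. The limit of 18% alone removed 541 barcodes with 1 hashtag. Their balance was 12.3 mitochondrial UMIs per nuclear subunit UMI, against 4.56 in kept cells. They had 28.1% mitochondrial UMIs and a median of 9138 UMIs. Their nuclear subunits stood at 31888 per 1000000 nuclear UMIs, against 32543 in kept cells. The paper reports fewer cells removed by its mitochondrial filter and slightly more cells kept, so these are not the same set as the cells it removed.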

How the results depend on the processing

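No test was made, paired or unpaired; gates were also compared within each hashtag. With a mitochondrial limit of 10% the log2 balance of the granule gate turned from -0.26 to 0.21, where few reference cells remained. That of the hashtag pairs, which uses all 736 remaining cells, turned from 0.02 to -0.065. The C1Q balance, against the same few reference cells, became 0.18. The mitochondrial percent became 8.60 and the summed MT-ND1 and MT-ND2 ratio 0.91. The counts of subunits past the fold became 30 (C1Q), 15 (granule) and 2 (hashtags). With no mitochondrial limit the balances were 0.14 (C1Q), -0.27 (granule), 0.034 (hashtags), 0.011 (eosinophil, turned) and 0.014 (HLA class II, turned), and the percent 13.5. With no limit on UMIs or genes they were 0.096 (C1Q), -0.25 (granule), 0.016 (globin) and 0.019 (hashtags), the percent 12.7, the summed ratio 0.81 and the granule count 3. With gate cuts doubled the balances were 0.049 (C1Q), -0.34 (granule) and -0.076 (globin) and the summed ratio 0.96. With equal weight of cells they were 0.12 (C1Q), -0.28 (granule), -0.0052 (globin) and 0.042 (hashtags), the summed ratio 0.93 and the granule count 8. As means of the 4 within-hashtag ratios the balances were 0.10 (C1Q), -0.27 (granule) and -0.52 (collagen, -0.39 as reported), the summed ratio 0.80 and the granule count 2. Thinned cells gave 0.12 (C1Q), -0.021 (globin), 0.0012 (HLA class II, turned) and 0.036 (hashtags), a summed ratio of 0.91 and a granule count of 10. Within gates the hashtag balance was 0.0031. The collagen balance was -0.86 with no limit on UMIs or genes and -0.19 with no mitochondrial limit. The eosinophil count went from 1 to 4 with doubled cuts and 2 thinned. With non-subunits kept the counts were 8 (granule), 6 (globin), 14 (HLA class II, 8 as reported) and 5 (eosinophil), per all gene UMIs 2 (granule), with the median of all genes set to 0 they were 7 (globin), and with no minimum 6 (globin) and 3 (hashtags).

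Leaving out each hashtag gave balances of 0.076 to 0.13 (C1Q), -0.30 to -0.24 (granule), -0.012 to 0.026 (globin) and -0.028 to 0.015 (HLA class II, turned without Hashtag-0255), a summed ratio of 0.81 to 0.86, a percent of 12.86 to 12.96, and granule counts of 2 (without Hashtag-0252) to 7. The cause of these shifts was not tested. Not run, with under 50 cells, were the comparisons of the platelet (18 cells) and mast (49) gates, the 10% limit in the globin (9), eosinophil (9), HLA class II (19) and collagen (38) gates, and the collagen gate without Hashtag-0255. Among subunits, genes near 4240 UMIs and gates under 150 cells have the widest counting intervals. Non-subunits with fewer UMIs, such as ATP5EP2 (517), have wider ones.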
